A study of Mus musculus with 15 samples.

Results

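The genes described here encode the machinery that copies chromosomal DNA and the regulators that start it at the G1/S transition, the step at which a cell commits to a round of DNA synthesis. They were the rows of the count table carrying 42 listed symbols: the MCM genes, origin licensing and firing genes, Cdc45 and the GINS genes, the sliding clamp and its loader, polymerases and primase, flap removal and ligation, nucleotide synthesis, the E and A cyclins, E2F factors, Uhrf1 and Slbp. All 42 were found among 40402 genes of the table. All 42 also passed the filter on low values, which asked for 1 CPM (counts scaled to the size of the library) in any of the libraries and kept 17647 genes.

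The cells were 4T1, a mouse mammary carcinoma line widely used as a model of triple-negative breast cancer, labelled wild type throughout. Untreated cells were compared with cells that received a plain extract, of blackberry in BLA and of blueberry in BLU, and with cells that received gold nanoparticles of the same berries, named BLA-A and BLU-A. The labels state no dose or exposure time, and no library of cells given gold particles without berry material was used here. Each condition had 3 columns, which differed by less than sampling noise (chi-square per degree of freedom 0.0951 to 0.475) and were counted as 1 library, so the data are 5 libraries of 25613778 to 26956442 counts with no replicate check within a condition.

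Before S phase, origin recognition factors, Cdc6 and Cdt1 place the MCM2-7 helicase on DNA, and Cdc7 kinase with cyclin-dependent kinases then recruits Cdc45 and GINS to switch it on. PCNA, loaded by replication factor C, holds the polymerases on the template. E2F factors bind the promoters of most of these genes, with E2f1 and E2f2 acting as activators and E2f7 and E2f8 as repressors, so that the set is transcribed together late in G1. In bulk RNA, fewer cells in S phase and less RNA per cell cannot be told apart.

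The promoters of the genes that lay at the ends of the fold changes are printed first, since E2F-like words stood in most of the members' promoters. RefSeq promoter sequences, running from 250 bases before the start to 50 bases after it, were matched for 34 of the 42 genes and were placed on GRCm39 by exact, unique matches. The words searched on both strands were TTGGCGC with its variants TTCGCGC and TTCCCGC and TTGCCGC, and neighbouring words can overlap. Genes with several starts had several windows, and a match in any of them counted for the gene. Of the 34 genes, 23 (67.65%) held at least 1 such word, against 2936 of 27025 genes with a promoter (10.9%) and 2219 of 13323 among genes kept (16.7%). The letters CCAAT stood in 21 of the 34 (61.8%) against 41.1% of all genes with a promoter, and TTTGAA in 7 (20.6%) against 20.2%. A match is a description of the letters and not a bound site. Mcm3 is shown as the lowest gene under BLA, Mcm5 as the highest MCM gene under BLA-A, Mcm6 as the promoter with the most words, E2f1 as the highest gene under BLA-A and Dut as the lowest. Capitals mark the E2F-like words.
Mcm3, chr1:20890487-20890786, minus strand: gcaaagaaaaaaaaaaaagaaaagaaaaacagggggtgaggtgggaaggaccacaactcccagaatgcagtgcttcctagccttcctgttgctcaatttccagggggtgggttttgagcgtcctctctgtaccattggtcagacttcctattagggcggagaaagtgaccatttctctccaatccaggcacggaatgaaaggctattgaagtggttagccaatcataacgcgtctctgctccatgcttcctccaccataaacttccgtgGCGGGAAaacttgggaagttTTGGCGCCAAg
Mcm5, chr8:75835887-75836186, plus strand: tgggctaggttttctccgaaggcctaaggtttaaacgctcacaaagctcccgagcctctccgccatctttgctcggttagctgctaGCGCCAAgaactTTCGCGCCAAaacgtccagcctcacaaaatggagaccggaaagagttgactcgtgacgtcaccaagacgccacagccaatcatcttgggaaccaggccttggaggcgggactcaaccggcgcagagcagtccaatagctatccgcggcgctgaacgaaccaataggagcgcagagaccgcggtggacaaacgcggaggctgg
Mcm6, chr1:128287393-128287692, minus strand: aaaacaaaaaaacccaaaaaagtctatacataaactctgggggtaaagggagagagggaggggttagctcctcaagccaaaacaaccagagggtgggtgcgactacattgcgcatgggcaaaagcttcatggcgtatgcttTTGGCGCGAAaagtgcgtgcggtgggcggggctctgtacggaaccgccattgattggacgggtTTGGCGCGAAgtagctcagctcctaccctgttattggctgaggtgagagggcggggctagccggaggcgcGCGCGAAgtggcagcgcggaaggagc
E2f1, chr2:154411297-154411596, minus strand: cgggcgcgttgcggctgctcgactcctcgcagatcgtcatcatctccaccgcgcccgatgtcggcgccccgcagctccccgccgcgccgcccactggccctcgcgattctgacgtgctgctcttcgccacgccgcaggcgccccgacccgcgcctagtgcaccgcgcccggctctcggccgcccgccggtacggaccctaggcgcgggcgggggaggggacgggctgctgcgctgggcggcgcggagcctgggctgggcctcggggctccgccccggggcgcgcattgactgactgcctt
Dut, chr2:125089185-125089484, plus strand: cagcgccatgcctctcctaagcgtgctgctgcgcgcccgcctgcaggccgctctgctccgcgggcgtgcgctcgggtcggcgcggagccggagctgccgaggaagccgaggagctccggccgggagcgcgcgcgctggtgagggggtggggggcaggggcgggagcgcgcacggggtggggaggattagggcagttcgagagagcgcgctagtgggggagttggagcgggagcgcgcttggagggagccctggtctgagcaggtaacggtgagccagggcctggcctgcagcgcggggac
Mcm6 held 5 words, and Mcm3 and Mcm5 held 3 each. In Mcm3 the words lay just downstream of the start and in Mcm5 upstream of it. None was found in the windows of E2f1 and Dut, whose RefSeq starts lie inside the GENCODE gene body, so these windows cover transcribed sequence. Members with and without an E2F-like word had median log2 fold changes of -0.32 and -0.43 under BLA, and of -0.22 and 0.07 under BLA-A.

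In untreated cells the members spanned a wide range of abundance. Since reads over introns were counted, levels between genes are compared as CPM per kb of gene body. On that scale Pcna was highest at 34.8 CPM per kb, followed by Ccna2 at 24.6, Rrm2 at 22.5, Mcm4 at 18.5 and Mcm7 at 17.6. The lowest were Ccne1 at 0.487, E2f2 at 0.495, Pola1 at 0.545 and Gins3 at 0.617 CPM per kb. The low place of Pola1 rests on division by its gene body of 327449 bp, since it had 178 CPM against 145 CPM for Pcna. The least counted member in any library was Ccne1 with 97 counts under BLU, and the most counted was Mcm6 with 9967 in untreated cells. The plot of levels in the 5 libraries shows that the order of genes within a role was mostly kept, with BLA-A changing it most visibly for the MCM genes and the clamp loader.

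**Figure D1:**
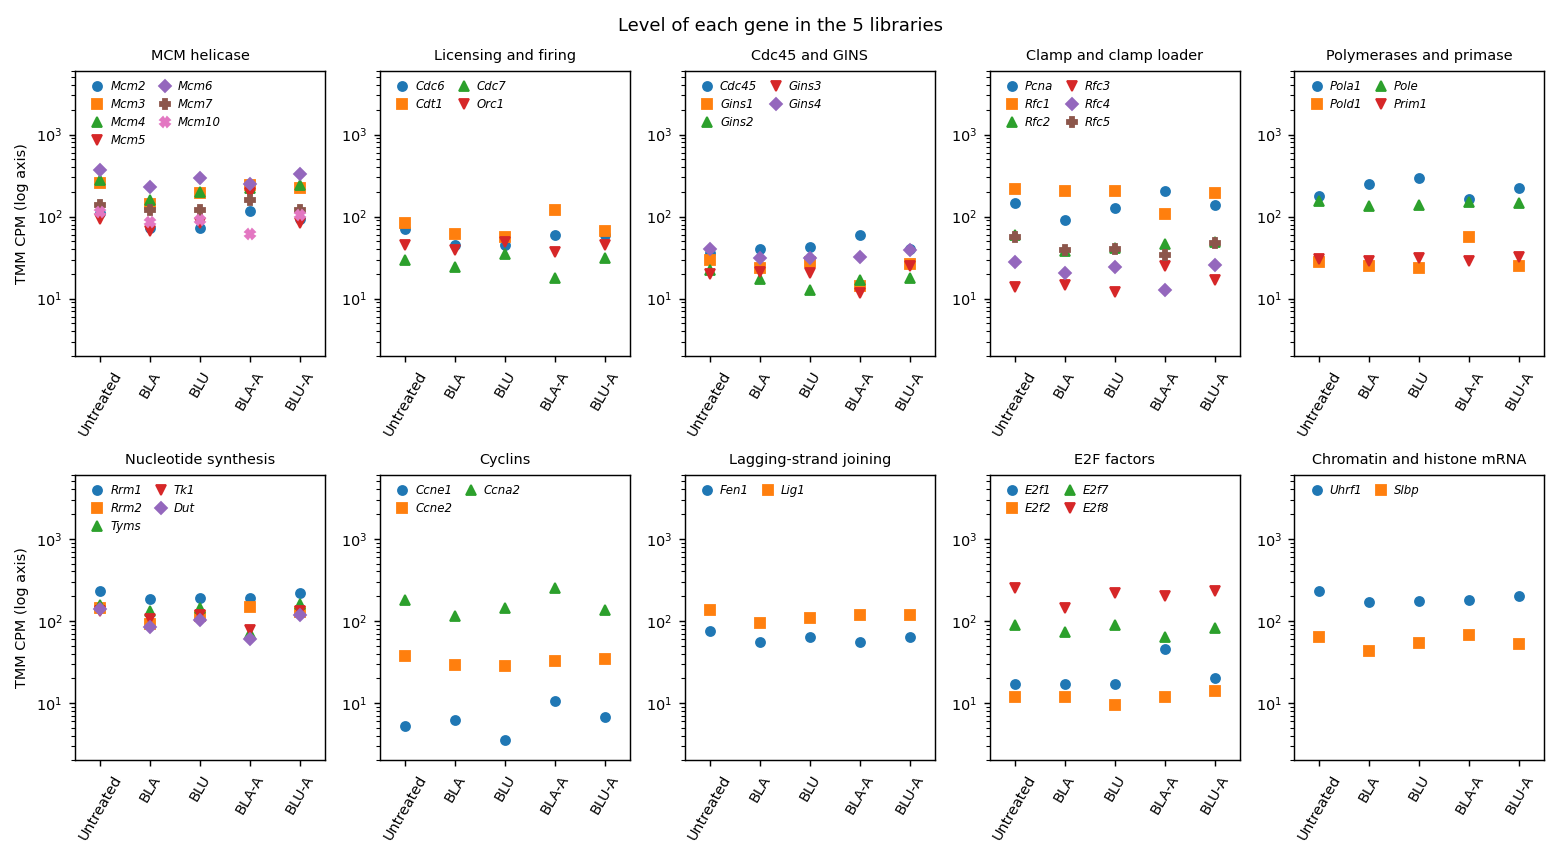
Level of each of the 42 genes in the 5 libraries, grouped by role, as TMM-normalized CPM on a log axis; each point is 1 library and there are no error bars because each condition is 1 library. Mcm5 and Mcm10 move apart under BLA-A, where Mcm5 stood at 193 and Mcm10 at 62 CPM.

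Against untreated cells, the members as a list lay lower under BLA. The log2 fold change, on the log2(CPM + 0.5) scale with TMM normalization, was below 0 for 35 of 42 members, where 50.9% of all genes kept and 51.2% of the 9765 genes with a mean of at least 10 CPM were, and the median was -0.37 against -0.01 for all genes kept. In the same library the nuclear RNAs Malat1 and Neat1 were higher, by 1.20 and 1.79. It was below -0.5 for 14 of 42 members against 21.5% of genes kept, or 13.7% of those with at least 10 CPM. The fold part of the study's own cut, a log2 change over 1 in size, was passed by 0 members. It was passed by 16.5% of genes kept and 5.22% of those with at least 10 CPM. The study also asked for an adjusted p under 0.05, which was not applied to these counts.

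Under BLU, 34 of 42 members were below 0 (50.5% of genes kept and 51.6% of those with at least 10 CPM) with a median of -0.27. Of these, 7 were below -0.5, against 14.6% of genes kept and 6.46% of those with at least 10 CPM, and 0 passed 1 in size, against 10.3% and 2.40%. Under BLU-A the values were closest to untreated cells: 30 of 42 were below 0 (49.7% of genes kept and 49.0% of those with at least 10 CPM), the median was -0.15, and no member passed 0.5 in either direction, where 12.0% of genes kept were below -0.5 and 12.9% above 0.5. Of the 9765 genes with at least 10 CPM, 149 were below -0.5 (1.53%) and 597 above 0.5 under BLU-A. The absence of members below -0.5 is therefore near the background. Past 1 in size were 7.85% of genes kept and 0.860% of those with at least 10 CPM.

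Under BLA-A the members split. The log2 fold change was below 0 for 28 of 42 (50.8% of genes kept and 43.5% of those with at least 10 CPM), below -0.5 for 11 (26.1% and 16.4%) and above 0.5 for 7 (23.4%), with a median of -0.25. Dut, Tyms, Rfc4, Rfc1 and Gins1 were below -1 (5 of 42 against 12.4% of genes kept) and E2f1 and Mcm5 above 1 (2 of 42 against 8.54%). Of the 9765 genes with at least 10 CPM, 461 were below -1 and 768 above 1. In both directions together this makes 7 of 42 members, against 20.9% of genes kept and 12.6% of those with at least 10 CPM. The SD over the members' values was 0.64, against 0.30 under BLA, 0.27 under BLU and 0.19 under BLU-A. Over genes with at least 10 CPM it was likewise widest under BLA-A, at 0.73 against 0.53, 0.44 and 0.37. The 4 comparisons share the untreated library, so their values are set side by side and are not independent.

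**Figure D2:**
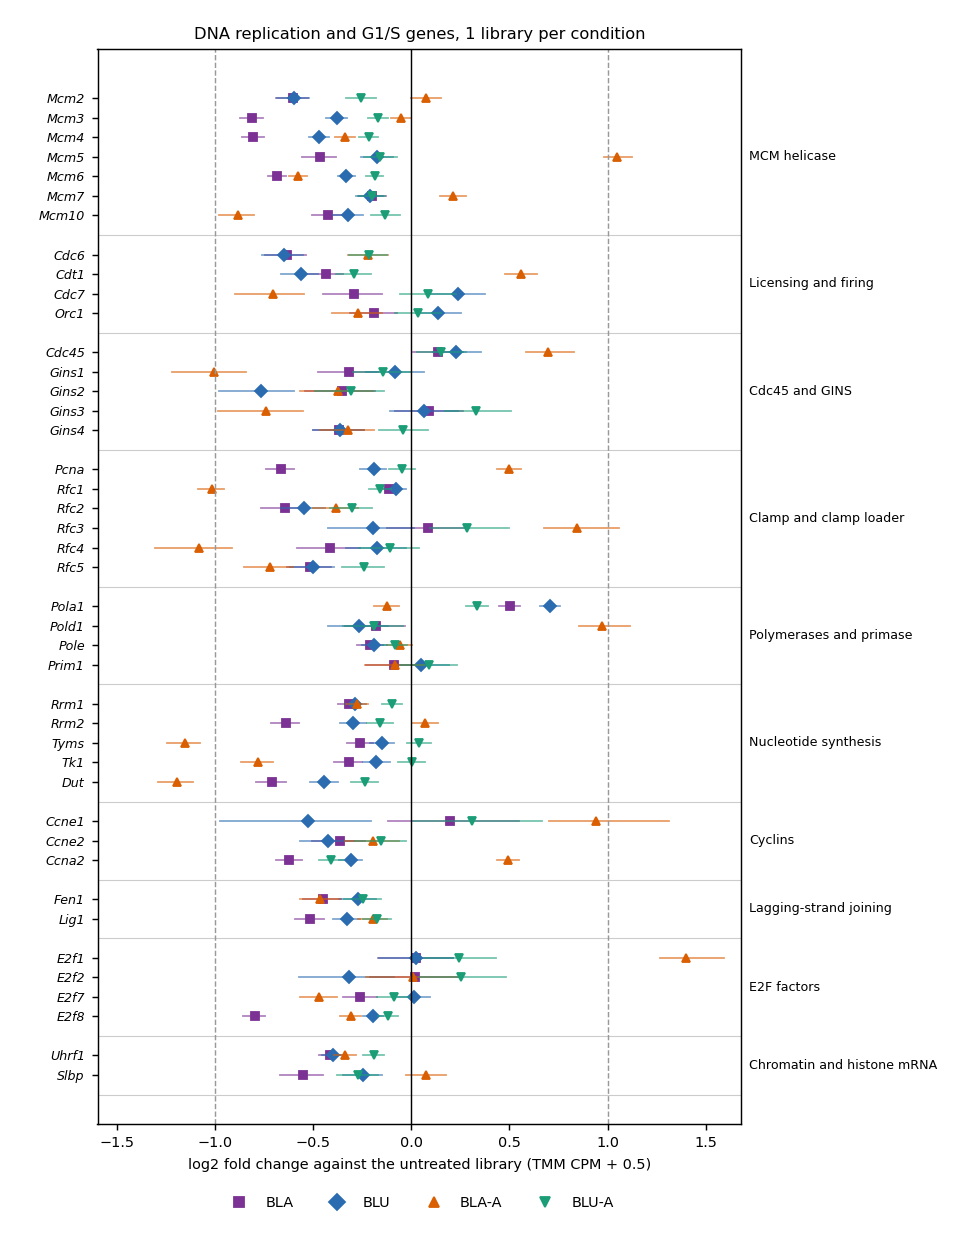
Log2 fold change of each gene against the untreated library (x axis, log2 of TMM CPM + 0.5) by role, with 1 point per treatment; bars are 95% intervals that cover counting error only, and dashed lines mark a log2 fold change of 1 in size. Most BLA, BLU and BLU-A points lie left of 0, and the BLA-A points run from -1.20 for Dut to 1.40 for E2f1.

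The MCM2-7 subunits form the ring-shaped helicase that unwinds DNA, and Mcm10 helps to activate it. All 7 genes lay below untreated cells under BLA, BLU and BLU-A, with medians of -0.61, -0.33 and -0.19, except that relative to genes of like length Mcm7 was at 0.098 under BLA and 0.015 under BLU. Mcm3 and Mcm4 were lowest under BLA, both at -0.81, followed by Mcm6 at -0.69. Mcm2 stood at 110 CPM in untreated cells, 72.2 under BLA, 72.5 under BLU, 116 under BLA-A and 92.3 under BLU-A. The 2 extract libraries were the low ones, and its log2 fold change was -0.61 (95% counting interval -0.69 to -0.53) under BLA and 0.07 (-0.00 to 0.15) under BLA-A. Mcm7, the least variable of the 7, stood at 138, 120, 119, 160 and 120 CPM in the same order of libraries, so 3 treated libraries were almost level below untreated cells and BLA-A was above.

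Under BLA-A the subunits of this 1 ring did not move together. Mcm5 stood at 93.1 CPM in untreated cells, 67.2 under BLA, 82.5 under BLU, 193 under BLA-A and 83.4 under BLU-A. Only the BLA-A library was above untreated cells, with a log2 fold change of 1.05 (0.98 to 1.12). Scaled by total counts in place of TMM, this value was 0.86. Mcm6 was at -0.58, Mcm4 at -0.34, Mcm3 at -0.05 and Mcm7 at 0.21 in that library, and Mcm10 at -0.89. From lowest to highest, the values of Mcm2 to Mcm7 spanned 1.62 under BLA-A, 0.61 under BLA, 0.43 under BLU and 0.10 under BLU-A. The SD over genes with at least 10 CPM was 0.73, 0.53, 0.44 and 0.37 in the same order. Spans of other gene sets were not computed.

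Orc1, Cdc6 and Cdt1 license origins, and Cdc7 is the kinase that fires them. Cdt1 stood at 82.7 CPM in untreated cells, 61.0 under BLA, 55.8 under BLU, 122 under BLA-A and 67.4 under BLU-A, with the BLA-A library above and the other 3 treated libraries below untreated cells. Its log2 fold changes were -0.44, -0.56, 0.56 and -0.29, and relative to genes of like GC content the BLA-A value was -0.049. Cdc6 was at -0.64 under BLA and -0.65 under BLU, and at -0.22 under both nanoparticles. Orc1 varied least of the 4, at 44.5, 39.0, 49.0, 36.8 and 45.5 CPM. Cdc7 was at 0.24 under BLU and -0.71 under BLA-A. Of the Orc1 gene body, 67.3% is overlapped by other genes, among them Prpf38a on the opposite strand, so part of its reads may not be its own.

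Cdc45 and the 4 GINS subunits join MCM2-7 to make the active helicase. Cdc45 was above untreated cells in each treated library, with log2 fold changes of 0.13 under BLA, 0.23 under BLU, 0.70 under BLA-A and 0.15 under BLU-A. Gins1 stood at 29.5 CPM in untreated cells, 23.6 under BLA, 27.8 under BLU, 14.4 under BLA-A and 26.6 under BLU-A. The BLA-A library was the low one, at -1.01 (-1.22 to -0.84). Gins3 stood at 19.7, 21.0, 20.6, 11.6 and 24.9 CPM in the same order, again lowest under BLA-A at -0.74. Gins2 was lowest under BLU, at -0.77. Gins4 was the least variable, at 40.4 CPM in untreated cells, 31.2 under BLA and BLU, 32.2 under BLA-A and 39.2 under BLU-A.

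PCNA is the sliding clamp, and Rfc1 to Rfc5 encode the 5-subunit complex that loads it. Pcna stood at 145 CPM in untreated cells, 90.9 under BLA, 126 under BLU, 204 under BLA-A and 140 under BLU-A. It was lowest under BLA at -0.67 (-0.74 to -0.60) and highest under BLA-A at 0.50 (0.44 to 0.56). Relative to genes of like length these values were -0.23 and 0.23. Rfc1, the large subunit, stood at 219, 202, 207, 108 and 196 CPM, and Rfc4 at 27.7, 20.6, 24.4, 12.8 and 25.6 CPM. Both were lowest under BLA-A, at -1.02 and -1.08. Rfc3 went the other way there, at 0.84, while Rfc5 was at -0.72. Rfc2 varied least, at 60.1 CPM in untreated cells, 38.3 under BLA, 41.0 under BLU, 46.0 under BLA-A and 48.6 under BLU-A, with untreated cells highest. The span over Rfc1 to Rfc5 was 1.93 under BLA-A, 0.73 under BLA, 0.47 under BLU and 0.59 under BLU-A. As for the MCM genes, it was not set beside spans of other gene sets. Of the Rfc5 gene body, 86.7% is overlapped by Wsb2 on the opposite strand.

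Pola1 and Prim1 encode subunits of the primer-making polymerase alpha and primase, and Pold1 and Pole the catalytic subunits of the lagging- and leading-strand polymerases. Pola1 was the highest of all 42 members under BLA (0.50), BLU (0.71) and BLU-A (0.33), and was at -0.13 under BLA-A. It is also the longest, with a gene body of 327449 bp, where the shortest member, Pcna, has 4153 bp. Relative to genes of like length Pola1 was at -0.17 under BLA, 0.10 under BLU and -0.03 under BLU-A. Pold1 stood at 28.4 CPM in untreated cells, 24.96 under BLA, 23.5 under BLU, 56.2 under BLA-A and 24.8 under BLU-A, so BLA-A alone was high, at 0.97 (0.86 to 1.12). Its gene body has the highest GC content of the members (56.6%), and relative to genes of like GC content it was at 0.37 under BLA-A and at 0.29 for BLA-A against BLA. Prim1 varied least of the 42, between 28.5 and 32.3 CPM in all 5 libraries.

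Fen1 removes the flaps of Okazaki fragments and Lig1 seals the nicks. Fen1 stood at 76.1, 55.5, 62.9, 55 and 64.0 CPM in untreated, BLA, BLU, BLA-A and BLU-A cells, and Lig1 at 135, 94.3, 107, 118 and 119 CPM. Each was highest in untreated cells, and the log2 fold changes of Fen1 (-0.45, -0.27, -0.46 and -0.25) and Lig1 (-0.52, -0.33, -0.20 and -0.17) were under 1 in size. Fen1 is overlapped over 71.0% of its length by genes of the opposite strand.

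Deoxynucleotides for replication come from ribonucleotide reductase (Rrm1 and Rrm2), thymidylate synthase (Tyms), thymidine kinase (Tk1) and dUTPase (Dut), which keeps uracil out of DNA. All 5 genes were below untreated cells under BLA and BLU. Dut stood at 140 CPM in untreated cells, 85.1 under BLA, 102 under BLU, 60.7 under BLA-A and 118 under BLU-A, with log2 fold changes of -0.71 (-0.79 to -0.64), -0.44, -1.20 (-1.29 to -1.11) and -0.24. It was the lowest of the 42 members under BLA-A. Tyms stood at 157, 131, 142, 70.4 and 162 CPM, and BLA-A was the only library far below untreated cells, at -1.16 (-1.24 to -1.08). Tk1 was at -0.78 there and at 0.00 under BLU-A, though its whole gene body is overlapped by genes of the opposite strand (100.0%).

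Rrm2, the S-phase subunit, stood at 143 CPM in untreated cells, 91.3 under BLA, 116 under BLU, 150 under BLA-A and 128 under BLU-A, so BLA was lowest and BLA-A level with untreated cells. Rrm1 stood at 231, 186, 190, 190 and 216 CPM and was between -0.32 and -0.10 in the 4 comparisons. Under BLA-A Rrm2 was at 0.07 (0.00 to 0.14) and Rrm1 at -0.28.

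Cyclins E1, E2 and A2 activate Cdk2 at G1/S and in S phase. Ccne1 was the scarcest member, at 5.29 CPM in untreated cells, 6.13 under BLA, 3.52 under BLU, 10.6 under BLA-A and 6.68 under BLU-A. Its log2 fold change was 0.94 (0.70 to 1.31) under BLA-A and -0.53 (-0.98 to -0.20) under BLU, and 0.20 (-0.12 to 0.55) under BLA, where the interval spans 0. Ccne2 stood at 37.8, 29.3, 28.1, 32.9 and 33.9 CPM and was highest in untreated cells. Ints8 on the opposite strand overlaps 55.5% of the Ccne2 gene body. Ccna2 was at -0.62 under BLA, -0.31 under BLU, 0.49 under BLA-A and -0.41 under BLU-A.

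Among the E2F factors, E2f1 stood at 16.8 CPM in untreated cells, 17.1 under BLA, 17.1 under BLU, 45.3 under BLA-A and 20.0 under BLU-A. The extract libraries were level with untreated cells within counting error, at 0.02 (-0.17 to 0.21) each. BLA-A was at 1.40 (1.27 to 1.59), the highest value of any member in any treatment, and at 0.99 relative to genes of like GC content. The other activator, E2f2, was at 0.01 (-0.23 to 0.25) under BLA-A. E2f7, the least variable of the 4, stood at 88.0, 73.3, 88.8, 63.3 and 82.8 CPM, and the second repressor, E2f8, was at -0.80 under BLA and -0.31 under BLA-A. Under BLA-A both repressors were below untreated cells and E2f1 above.

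Uhrf1 reads hemimethylated DNA behind the fork, and Slbp binds the ends of replication-dependent histone mRNAs. Uhrf1 stood at 228, 171, 173, 181 and 200 CPM and was highest in untreated cells. Slbp stood at 63.2, 42.9, 53.2, 66.6 and 52.2 CPM and was lowest under BLA, at -0.55 (-0.67 to -0.45).

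Counting error alone left 34 members below 0 and 2 above under BLA, 32 and 4 under BLU, 26 and 11 under BLA-A, and 27 and 7 under BLU-A, with intervals that exclude 0. Of genes with at least 10 CPM, the intervals lay below and above 0 for 40.9% and 38.9% under BLA, 37.7% and 36.6% under BLU, 35.2% and 48.0% under BLA-A, and 30.3% and 32.5% under BLU-A. These intervals say nothing about the spread between cultures.

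The 5 libraries allow a test only when conditions are pooled. With the 4 treated libraries against the untreated library, edgeR's quasi-likelihood test with Benjamini-Hochberg adjustment over 17647 genes called 0 of 42 members, and 4 genes in all (0.0227%). No member had an unadjusted p under 0.05, where 2.73% of genes did, and DESeq2's Wald test also called 0 members. Without the BLA-A library 8 of 42 members had an unadjusted p under 0.05, beside 10.4% of genes, and 0 were called. The lowest p was that of Rfc2 (log2 fold change -0.47 ± 0.26 SE, adjusted p = 0.999 by edgeR's quasi-likelihood test), whose 4 treated libraries were all below untreated cells. The fitted log2 fold change was below 0 for 34 of 42 members, with a median of -0.26 against 0.07 for all genes. The spread in this test is that between different treatments, at a common biological coefficient of variation of 0.452 and 3 residual degrees of freedom, so p-values measure only the spread between these libraries.

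The design also sets each nanoparticle form beside its plain extract. The members' median for BLA-A against BLA was 0.13, against -0.08 for all genes kept and 0.02 for genes with at least 10 CPM. Scaled by total counts in place of TMM, the medians of the members and of all genes kept were -0.029 and -0.22. Below 0 were 16 of 42 members, 53.6% of genes kept and 4782 of the 9765 genes with at least 10 CPM. Mcm5 (1.51), E2f1 (1.38), Pcna (1.16), Pold1 (1.15) and Ccna2 (1.11) were above 1, 5 of 42 against 11.5% of genes kept. No member was below -1, against 12.9%, and Rfc1 (-0.90), Tyms (-0.90) and Gins3 (-0.83) were lowest. Of 9765 genes with at least 10 CPM, 1135 were above 1 and 575 below -1. These member counts depend on the scaling. With total counts Pold1 (0.997) and Ccna2 (0.95) were under 1, and Rfc1 (-1.06) and Tyms (-1.05) were below -1. Relative to genes of like length, 2 members were past 1 in size, Mcm5 (1.40) and Tyms (-1.12). BLU-A against BLU, which shares no library with the former, gave a median of 0.17 against -0.02, with 9 of 42 below 0 (52.1% of genes kept). For genes with at least 10 CPM the median was -0.01, with 4998 of 9765 below 0. No member passed 1 in size, against 6.76% of genes kept. Of 9765 genes with at least 10 CPM, only 7 were below -1 and 28 above 1, so this absence is near the background. Ccne1 was highest at 0.84 and Pola1 lowest at -0.37.

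All of Mcm2 to Mcm7 were higher in the nanoparticle than in the extract library of the same berry, by 0.11 (Mcm6) to 1.51 (Mcm5) for blackberry and by 0.01 (Mcm7) to 0.35 (Mcm2) for blueberry, except that Mcm6 was at -0.050 for blackberry when scaled by total counts. Relative to genes of like length, Mcm7 was at -0.12 and Mcm5 at -0.041 for blueberry, and Mcm7 was level for blackberry. Cdc6 differed by 0.42 for blackberry and 0.43 for blueberry (0.26 and 0.44 with total counts), Ccne1 by 0.74 and 0.84 (0.59 and 0.84), and Rfc2 by 0.26 and 0.24 (0.11 and 0.25). Mcm5, by contrast, differed by 1.51 for blackberry and by 0.02 for blueberry, and Pold1 by 1.15 and 0.07.

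**Figure D3:**
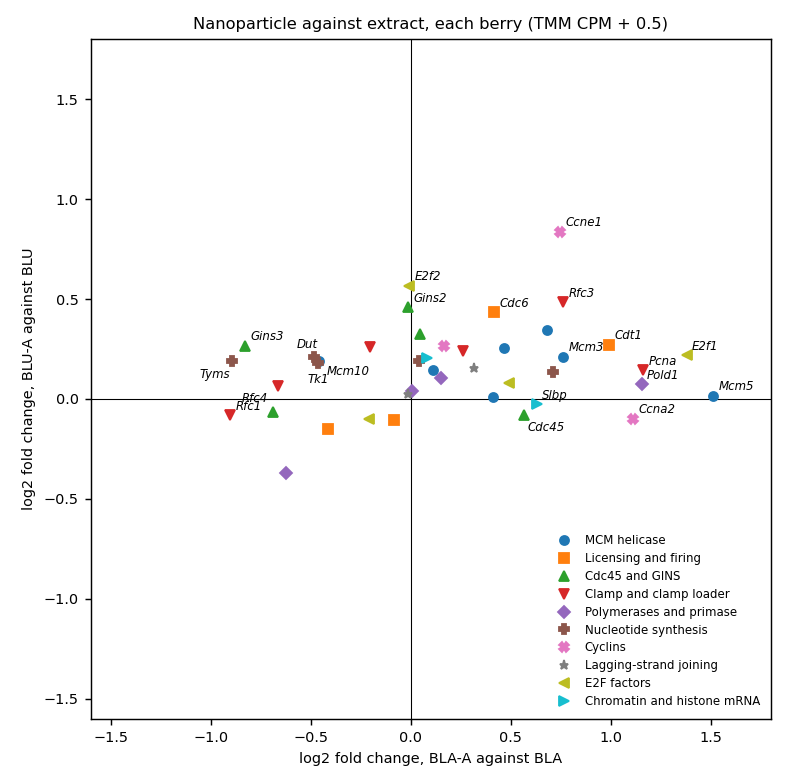
Log2 fold change of the nanoparticle form against the plain extract for blackberry (x axis) and blueberry (y axis), log2 of TMM CPM + 0.5; each point is 1 gene, with symbol by role. The points spread from -0.90 to 1.51 along the blackberry axis and from -0.37 to 0.84 along the blueberry axis.

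With BLA-A and BLU-A together against BLA and BLU, edgeR's quasi-likelihood test with Benjamini-Hochberg adjustment called 0 members and 0 genes (0.00%), as did DESeq2's Wald test for the members. An unadjusted p under 0.05 was found for 2 of 42 members and 6.28% of genes. These were Pcna (0.73 ± 0.29 SE) and Mcm2 (0.59 ± 0.24 SE), with an adjusted p of 0.682 each by edgeR's quasi-likelihood test. In both genes the nanoparticle library was higher than the extract library for each berry. Relative to genes of like length, Pcna was at 0.46 for blackberry but at -0.07 for blueberry, and Mcm2 at 0.46 and 0.25. Without the BLU-A library the nanoparticle arm is BLA-A alone, so member calls in that fit rest on 1 library. In the full fit the difference was below 0 for 12 of 42 members and its median was 0.27 against 0.00 for all genes. Blackberry against blueberry called 0 members and 0 genes (0.00%), with an unadjusted p under 0.05 for 0 members and 3.58% of genes. The lowest p there was that of Dut (adjusted p = 0.914 by edgeR's quasi-likelihood test). Without BLA the blackberry arm is BLA-A alone, and without BLA-A it is BLA alone, so member calls in those fits rest on 1 library.

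Gene length moved with the fold changes. Among 9505 genes with at least 10 CPM and a known length, Spearman's rho between log2 fold change and gene body length was 0.52 under BLA, 0.55 under BLU, -0.03 under BLA-A and 0.37 under BLU-A, across genes that share their libraries. Over the 42 members rho was 0.30, 0.40, -0.26 and 0.31. The members are short, with a median gene body of 16221 bp against 30481 bp. Set relative to genes of like length, the members' medians were -0.24 under BLA (34 of 42 below 0), -0.10 under BLU (30), -0.30 under BLA-A (29) and -0.10 under BLU-A (29), and 5 members in place of 14 lay below -0.5 under BLA. The lower position of the members under BLA and BLU was therefore smaller by over 1.5 times on this scale, while the direction of the medians was kept. The difference of the nanoparticle form from the extract was -0.014 for blackberry and 0.090 for blueberry on the same scale.

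**Figure D4:**
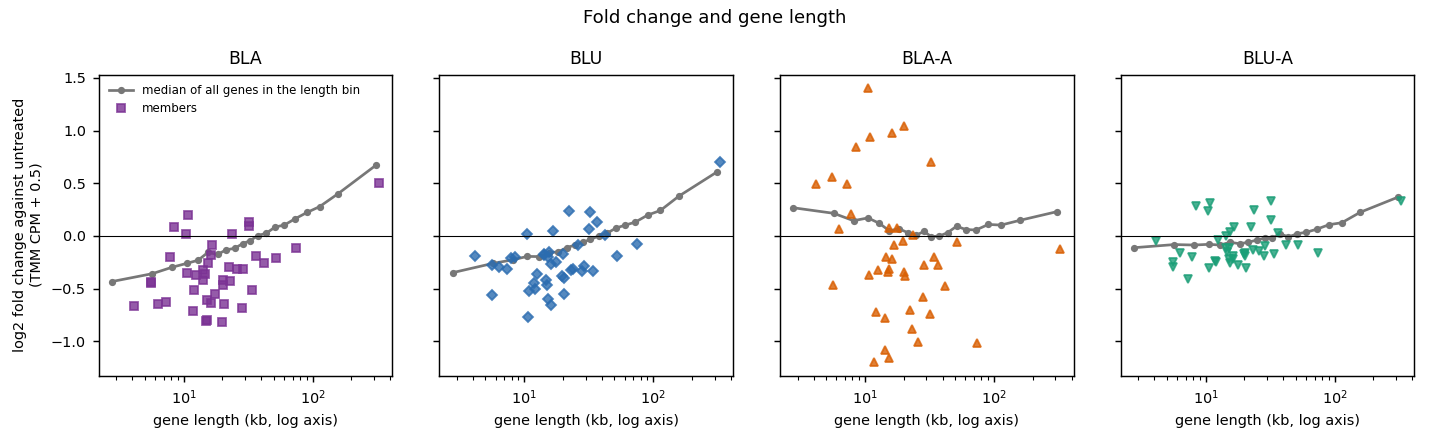
Log2 fold change against untreated cells (y axis) by gene body length (x axis, kb, log axis); the grey line joins the medians of 20 length bins of genes with at least 10 CPM, and symbols are the 42 members. Under BLA and BLU the grey line climbs with length, from -0.43 to 0.67 under BLA, and most members lie below it.

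GC content of the gene body moved with the fold changes in the same genes, with rho of -0.24 under BLA, -0.35 under BLU, 0.27 under BLA-A and -0.13 under BLU-A. The members' median GC content was 46.5% against 45.3%. Relative to genes of like GC content their medians were -0.36, -0.24, -0.28 and -0.14. The BLA-A library stood apart from the others in its TMM factor (0.905 against 1.01 to 1.03) and in the share of its counts on the noncoding gene Gm26917 (7.84% against 4.55% to 6.40%). Scaled by total counts in place of TMM, the members' median under BLA-A was -0.44 with 32 of 42 below 0, and the median of all genes was -0.18. On that scale Mcm2, Rrm2, E2f2 and Slbp changed sign under BLA-A, to -0.12, -0.12, -0.17 and -0.12. The nuclear noncoding RNAs Malat1 and Neat1 were above untreated cells in each treated library, Malat1 by 1.20, 0.95, 0.93 and 0.50 under BLA, BLU, BLA-A and BLU-A, and Neat1 by 1.79, 1.30, 0.32 and 1.06. The part of length, GC content and these 3 noncoding RNAs in the results was not tested.

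Genes that work beside the members were taken from 3 further lists. Of 48 other replication genes kept, 35 were below 0 under BLA, 31 under BLU, 32 under BLA-A and 29 under BLU-A, with medians of -0.25, -0.10, -0.15 and -0.06. Past 1 in size were Pole3, a small subunit of polymerase epsilon (-1.05 under BLA), and, under BLA-A, Pole4 of the same enzyme (-1.50), Orc6 of the origin recognition complex (-1.39) and Dctpp1, a nucleotide pyrophosphatase (-1.03). The catalytic partner of Pole3 and Pole4, the member Pole, was at -0.21 under BLA and -0.06 under BLA-A. Among the most abundant genes of the list, Atad2 stood at 586 CPM in untreated cells and 545, 586, 533 and 515 CPM under BLA, BLU, BLA-A and BLU-A, and Dnmt1 at 414, 353, 357, 443 and 397 CPM.

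Of 25 G1/S control genes kept, 17 were below 0 under BLA, 15 under BLU, 10 under BLA-A and 16 under BLU-A, with medians of -0.23, -0.03, 0.10 and -0.03. Only Cdkn1a, which encodes the Cdk inhibitor p21, passed 1 in size. It stood at 21.1 CPM in untreated cells, 20.4 under BLA, 22.3 under BLU, 69.2 under BLA-A and 20.9 under BLU-A, so the BLA-A library alone was high, at 1.69. Ccnd1, a cyclin D of the G1 kinase, stood at 1179, 704, 898, 1145 and 1019 CPM and was lowest under BLA, at -0.74. Of the other D cyclin genes, Ccnd2 was between -0.17 and -0.07 in the treated libraries. Ccnd3 went the other way, at 0.62, 0.70, 0.79 and 0.58 under BLA, BLU, BLA-A and BLU-A. Cdk6, the kinase partner of D cyclins, stood at 472 CPM in untreated cells. It was above that in each treated library (711, 719, 634 and 608 CPM in the same order).

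The 20 mitotic genes, which are transcribed later in the cycle, had medians of -0.49 under BLA (19 of 20 below 0), -0.14 under BLU (16), -0.25 under BLA-A (14) and -0.08 under BLU-A (17). Under BLA they thus lay lower than the replication genes (-0.37), and under BLU higher (-0.27 for the replication genes), and neither difference was tested. Mad2l1 of the spindle checkpoint was at -1.20 under BLA, and Top2a, the topoisomerase that untangles replicated DNA, and the kinesin Cenpe were at -1.23 and -1.12 under BLA-A. Mki67 stood at 2143 CPM in untreated cells, 1575 under BLA, 1841 under BLU, 1420 under BLA-A and 1781 under BLU-A.

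**Figure D5:**
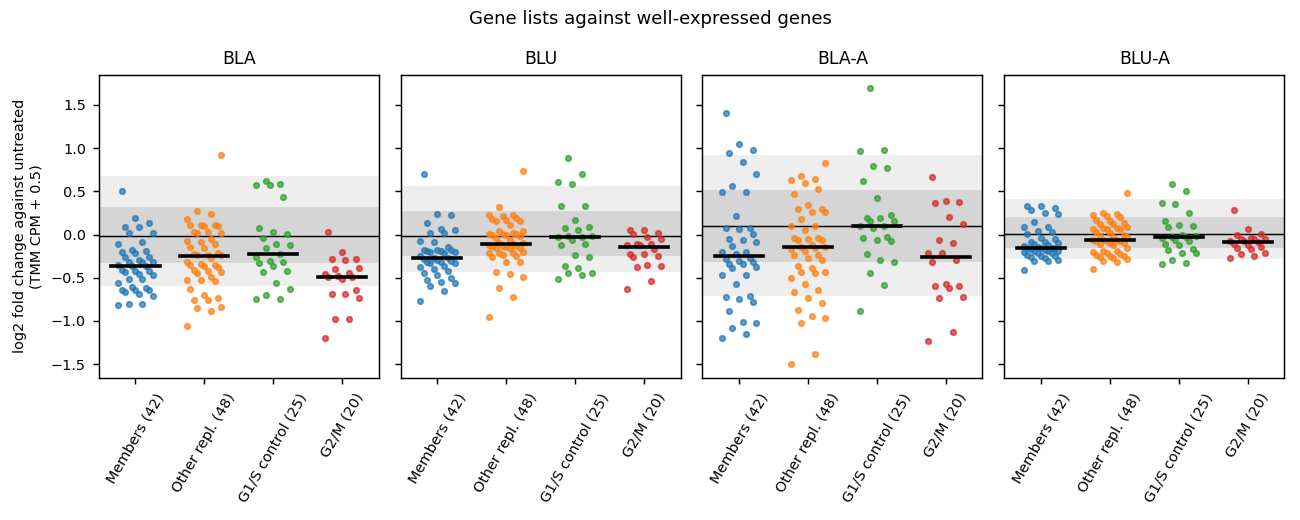
Log2 fold change against untreated cells (y axis, log2 of TMM CPM + 0.5) of the members and 3 other gene lists in each treatment, with the number of genes kept in brackets; points are genes, thick bars medians, and the grey bands the middle 50% and 80% of 9765 genes with at least 10 CPM. The members' median lies below the line of all these genes in each panel, by most under BLA and BLA-A.

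The cells carried the markers of their labelled origin: 5 of 6 mammary epithelial markers were at or above 1 CPM in each library, with a summed level from 937.9 CPM under BLA to 1677 under BLA-A, and the basal keratin Krt14 was under 1 CPM. Leukocyte markers summed to between 0.863 and 4.54 CPM, endothelial markers to between 1.51 and 2.72, and the fat marker Adipoq to at most 0.377. Of the fibroblast markers, Pdgfra stood between 86.0 and 102 CPM and the other 2 at or under 1.801 CPM.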

How the data were processed

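RNA-seq of 4T1 cells was deposited by the authors as a table of raw read counts per gene, in 15 columns for 5 conditions. According to the study's methods, ribosomal RNA was removed, the mates of a pair were merged and aligned to GRCm39 (RefSeq) with STAR, and reads were counted in OmicsBox over whole genes, introns included, with a forward strand setting. Reads of overlapping genes on opposite strands may be miscounted if that setting did not match the library. The submitters' notes name DESeq2 1.36.0. Deposited tables of the authors' own fold changes, p-values and enrichment scores were not used.

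All 15 columns matched a label (0 unmatched). Within each condition the spread of the 3 columns was below sampling noise (chi-square per degree of freedom 0.0951 to 0.475, with a limit of 1.5), so their rounded mean was used as 1 library. The labels give each of the 15 samples its own batch date, so batch and sample cannot be told apart. The filter retained a gene when any library reached 1 CPM, TMM factors were computed over 5 libraries, and 2 libraries were compared by log2(CPM + 0.5), with exact Clopper-Pearson 95% intervals of the ratio that cover counting error only. A count of 0 would have allowed 3 counts, or 0.111 to 0.117 CPM. Pooled conditions were tested with edgeR 4.0.16 (glmQLFit and glmQLFTest, Benjamini-Hochberg over all genes kept, call at 0.05), with DESeq2 1.42.0 as an alternative, in R 4.3.3. Figures and sequences were made with Python 3.11.15. The scripts were tested on simulated data. Gene positions, lengths and overlaps came from GENCODE M39 on GRCm39, and promoter sequences from RefSeq.

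The members and gene lists were chosen with earlier results of these data known. All 42 members could be named, and levels in every library were given for members past 1 in size, the most and least variable of each role, and Pcna, Mcm2, Ccne1, Ccne2, E2f1, Rrm2, Tyms and Cdt1. Of other lists, genes past 1 in size and up to 4 by mean CPM could be named, and Ccnd2 and Ccnd3 were added beside Ccnd1. Alternatives covered normalization, filters, pseudocounts, columns, libraries, the replicate block and, added after seeing the data, centring on genes of like length or GC content.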

Additional observations from a re-analysis of the deposited data

Results flagged for a closer look

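For 7 of the 42 genes the difference between nanoparticle and extract pointed in opposite directions for the 2 berries, each beyond counting error, which is why they are listed. The same held for 17.9% of genes with at least 10 CPM, beside 16.7% of the members. With 1 library per condition the difference between the berries was not tested. Of the nucleotide synthesis genes, Tyms was at -0.90 for BLA-A against BLA and 0.19 for BLU-A against BLU, Dut at -0.48 and 0.21, and Tk1 at -0.46 and 0.18. Of the helicase and loader genes, Gins3 was at -0.83 and 0.27, Mcm10 at -0.46 and 0.19, and Rfc5 at -0.20 and 0.26. Ccna2 went the other way, at 1.11 for blackberry and -0.10 for blueberry. Tk1, Rfc5 and Ccna2 overlap genes of the opposite strand, over 100.0%, 86.7% and 14.6% of their length.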

How the results depend on the processing

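The medians over the members kept their sign under the other normalizations, filters, pseudocounts and column choices run here, except that BLA-A against BLA was -0.029 with total counts. With total counts the BLA-A median against untreated cells was -0.44, and the share of genes past 1 in size that were higher under BLA-A went from 40.8% to 28.4% (45.1% with DESeq2 size factors). Relative to genes of like length the medians were -0.24 for BLA, -0.10 for BLU, -0.014 for BLA-A against BLA and 0.090 for BLU-A against BLU. Leaving out 1 column number at a time moved the medians to between -0.38 and -0.36 for BLA and between -0.26 and -0.24 for BLA-A. Among 168 values of single members, 13 changed sign relative to genes of like length, 7 with total counts, 6 with DESeq2 size factors, 6 relative to genes of like GC content (shifts of up to 0.61) and 32 relative to the mitotic median.

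Members called by edgeR stayed at 0 for treated against untreated cells in every fit on 5 libraries or fewer. For nanoparticles against extracts, 1 member was called without a filter (2.28% of genes), and leaving out 1 library at a time gave 0 to 16, the 16 without BLU-A (23.3% of genes). For blackberry against blueberry the range was 0 to 21, with 21 without BLA (27.5% of genes) and 1 without BLA-A (1.73%). There an arm of 1 library is assumed to vary like the others. Without BLU-A in the first test and without BLA in the second, that library was BLA-A. Taking the 15 columns as separate samples called 39, 41 and 40 members in the 3 tests, beside 80.4%, 83.7% and 82.5% of genes, and the same 39, 41 and 40 with a replicate block. Same-numbered columns did not deviate together (mean r -0.0011 over 30 pairs, range -0.0199 to 0.0146). Because the columns of a condition differ by less than sampling noise, this check cannot show whether samples were paired.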
